A study of Homo sapiens with 6 samples.

Results

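The cytosolic ribosomal protein genes are 77 of the 60612 genes in a table of RNA counts from HepG2, a human liver cancer cell line. They were taken by symbol, as RPL or RPS followed by a number and at most an A or an X, plus RPSA, RPLP0, RPLP1 and RPLP2, which leaves pseudogenes out. All 77 had at least 100 counts over the 6 libraries, from 462 counts for RPL36A to 324049 for RPS2, so 0 were dropped, and all 77 passed the filter on low counts. Proteins of the large subunit are made from 46 of them and proteins of the small subunit from 31. The genes lie on 21 chromosomes, with 12 of them on chromosome 19.

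One group of 3 libraries, sh-circPRKAA1, came from cells infected with a lentivirus with an shRNA to circPRKAA1, a circular transcript of PRKAA1, the gene of an AMP-activated kinase subunit. The other group of 3, sh-ctrl, came from cells infected with a lentivirus carrying a control shRNA. All 6 were labelled as wild type. The labels do not tell whether infected cells were selected or whether replicates are separate cultures, so the spread behind each p-value may be technical. The table counts reads per gene, and the circular RNA itself was not analysed here, so the depth of the knockdown has no value beside the results.

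A ribosome joins a small subunit, which reads the mRNA, to a large subunit, which forms the peptide bonds, and each subunit is a scaffold of ribosomal RNA coated with one copy of most of its proteins. The proteins are needed in near-equal numbers, and their genes are among the most actively transcribed in any growing cell. Most of their mRNAs begin with a C followed by a run of C and T, the 5′ terminal oligopyrimidine (TOP) motif, through which the kinase mTOR and the protein LARP1 set their translation and stability. Liver tumour cells depend on a high output of ribosomes to grow.

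The start of the transcript is where these genes resemble each other most, and 62 of the 77 matched a promoter of the same symbol in RefSeq (GRCh38.p14, 250 bases before to 50 after the start). A TOP start was counted as a C at the start site followed by at least 4 bases that are C or T, on the gene's own strand. It was found in 46 of the 62, or 74.2%, against 5.14% of all 27305 genes with a promoter in the table. The share was 73.7% in the large subunit (28 of 38) and 75% in the small subunit (18 of 24). The 6 genes printed first are among those with the largest falls after knockdown, and each has a TOP start. Each window holds 50 bases before the start and 25 from it, 5′ to 3′, and the capitals mark the run of C and T that begins at the start site.
RPSA, chr3:39406670-39406744 (plus strand): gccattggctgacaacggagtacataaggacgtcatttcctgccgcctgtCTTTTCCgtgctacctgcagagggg
RPLP0, chr12:120201087-120201161 (minus strand): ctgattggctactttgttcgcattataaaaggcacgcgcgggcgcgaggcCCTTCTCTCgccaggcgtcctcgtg
RPS9, chr19:54200808-54200882 (plus strand): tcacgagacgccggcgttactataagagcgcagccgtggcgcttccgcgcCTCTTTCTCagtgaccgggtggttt
RPLP1, chr15:69452768-69452842 (plus strand): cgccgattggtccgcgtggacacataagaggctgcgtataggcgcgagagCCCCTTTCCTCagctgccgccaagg
RPLP2, chr11:809917-809991 (plus strand): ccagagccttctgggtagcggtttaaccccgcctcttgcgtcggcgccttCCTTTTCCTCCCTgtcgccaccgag
RPS21, chr20:62387053-62387127 (plus strand): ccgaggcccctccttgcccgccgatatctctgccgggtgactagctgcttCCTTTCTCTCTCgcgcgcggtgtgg

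The next 4 are chosen genes with smaller falls whose starts carry the same kind of run, in capitals. Not all such genes do: RPL4, RPL17, RPS4X and RPS7 also had smaller falls and have no TOP start. Among the printed genes with a run, its length does not set these 4 apart. It goes from 7 bases in RPL22 to 14 bases in RPS24, beside 7 bases in RPSA and 13 in RPLP2.
RPL24, chr3:101686694-101686768 (minus strand): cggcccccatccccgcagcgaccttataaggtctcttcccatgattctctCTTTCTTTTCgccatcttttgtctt
RPS24, chr10:78033813-78033887 (plus strand): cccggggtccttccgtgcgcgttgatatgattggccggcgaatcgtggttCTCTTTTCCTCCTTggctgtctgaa
RPL22, chr1:6199571-6199645 (minus strand): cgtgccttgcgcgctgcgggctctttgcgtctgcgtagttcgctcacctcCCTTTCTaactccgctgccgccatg
RPL35A, chr3:197950140-197950214 (plus strand): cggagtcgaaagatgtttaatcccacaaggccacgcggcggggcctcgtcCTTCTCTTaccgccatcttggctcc

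For contrast, RPS29 and RPS26 have no TOP start at the RefSeq start site and so no capitals. RPS29 had one of the larger falls and RPS26 one of the smaller.
RPS29, chr14:49598686-49598760 (minus strand): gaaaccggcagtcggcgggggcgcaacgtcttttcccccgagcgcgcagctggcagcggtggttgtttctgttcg
RPS26, chr12:56041868-56041942 (plus strand): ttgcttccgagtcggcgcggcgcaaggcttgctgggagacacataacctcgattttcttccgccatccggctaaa

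Other motifs known from such promoters were sought on both strands of the whole window. CCGGAAG, the core bound by ETS-family factors such as GABPA, was in 35.5% of the 62 promoters and 12.2% of all promoters. TCTCGCGA was in 19.4% and 1.37%, and AAGATGGC, which matches the site of YY1, in 9.68% and 3.52%. CTTTCC on the gene's strand, from 10 bases before to 20 after the start, was in 30.6% and 1.91%, and it can overlap the TOP run. A match describes letters in a window and no binding was measured.

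After knockdown the ribosomal protein genes were lower almost without exception. Differences were tested with edgeR's quasi-likelihood test on counts scaled by TMM, with p-values adjusted over all 14990 tested genes and called at an adjusted p under 0.05. Of the 77 genes, 76 fell and 0 rose, where 32.4% of all tested genes were called lower and 36.1% higher (68.4% in either direction). In the large subunit 45 of 46 fell, and in the small subunit 31 of 31. The median log2 change, sh-circPRKAA1 over sh-ctrl, was -0.77 over the 77 genes and 0.048 over all tested genes. The middle of the distribution was narrow, with quartiles at -1.04 and -0.60, and the whole range was -1.62 to -0.0022. The standard error of 1 gene's change had a median of 0.0796, and the largest adjusted p among the genes called lower was 0.00574 (edgeR, RPS26).

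The size of the fall depended on how libraries were put on one scale, and its direction for the group did not. Scaling by library totals moved the median over all tested genes to 0.25, and scaling as in TPM moved it to 0.34. With library totals 23.7% of all tested genes were called lower and 45.5% higher, and with TPM scaling 19.7% and 49.6%. The median of the ribosomal protein genes then stood at -0.57 and -0.48. Relative to all tested genes it was -0.82 in both, as with TMM. That is so by construction, since a single factor per library shifts all genes nearly alike. Quantile normalization, which forces the libraries to one distribution, gave a median of -0.38, with 62 genes called lower and RPL4 called higher (limma, adjusted p = 0.000468), beside 34.5% of all tested genes called lower and 32.6% higher. RPL3, RPL23, RPS7 and RPS24 also had a positive log2 change there, from 0.024 to 0.081. Relative to all tested genes, the median of the ribosomal protein genes was -0.37 with quantile normalization. It was -0.73 with offsets for GC content and length, which are described below.

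Counting error was small, since the libraries held 16348435 to 17549690 counts after knockdown and 16284262 to 20282496 in control cells. Some properties of whole libraries moved with the groups. Weighted by counts, gene GC content averaged 48.9% ± 0.124 after knockdown and 50.3% ± 0.414 in control cells, and genes of the mitochondrial genome took 10.7% ± 0.584 of counts after knockdown and 9.56% ± 0.205 in control cells (SD, n = 3 each). Genes with at least 1 count numbered 23978 ± 202 after knockdown and 21736 ± 604 in control cells. Of the hepatocyte markers ALB, AFP, TTR, APOA1, APOB, SERPINA1, HNF4A and FGB, all 8 were measured, with a summed level of 23270.5 to 24126 CPM after knockdown and 22528 to 24347 CPM in control cells. CPM is here a count scaled to a common TMM-adjusted library size. Of these 8 markers, 4 were called lower and 2 higher, beside 32.4% and 36.1% of all tested genes. The leukocyte markers summed to 609 to 634 CPM after knockdown and 777 to 854 CPM in control cells, nearly all of it LYZ, and the 2 of 4 that were tested were called lower. Of 3 endothelial markers 1 was tested and not called, with sums of 4.75 to 5.48 CPM after knockdown and 4.81 to 7.44 CPM in control cells. Of 4 fibroblast markers 1 was tested and called lower, PDGFRB, with sums of 2.44 to 2.66 CPM after knockdown and 3.74 to 4.27 CPM in control cells. PTPRC, CD3E, VWF, CDH5, COL1A1, COL1A2 and DCN were under 1 CPM in every library. With mitochondrial genes left out 76 ribosomal protein genes were still called lower, and the part of the marker changes in the falls was not tested. In bulk RNA, fewer cells that express a gene and less RNA per cell cannot be told apart.

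Measured as a share of each library, the 77 genes held 5.25%, 5.30% and 4.79% of all counts in the knockdown libraries and 8.64%, 7.94% and 8.05% in the control libraries. The groups did not overlap, with means of 5.11% ± 0.277 after knockdown and 8.21% ± 0.379 in control cells (SD, n = 3 each). Large subunit genes accounted for 2.94% ± 0.147 after knockdown and 4.56% ± 0.197 in control cells, and small subunit genes for 2.17% ± 0.130 after knockdown and 3.65% ± 0.181 in control cells. With genes of the mitochondrial genome left out of the total, the 77 genes held 5.73% after knockdown and 9.08% in control cells. Per length, on the TPM scale, the 77 genes held 5.18% ± 0.163 after knockdown and 7.89% ± 0.267 in control cells. Within groups a single library stood at an end for most of the genes. Control replicate 1 was the highest control library for 61 of the 77 genes, and knockdown replicate 3 was the lowest knockdown library for 74. The same was not counted over all tested genes, so it may not be particular to the 77. Control replicate 1 also had the highest mean GC content of the control libraries, 50.7% beside 49.9% and 50.3%.

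**Figure D1:**
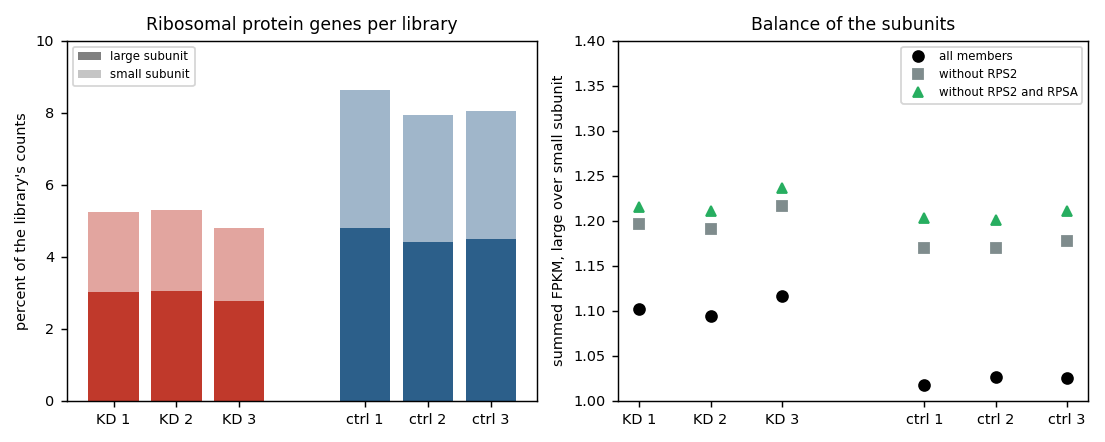
The left plot stacks the percent of each library's counts taken by large and small subunit genes, with knockdown libraries (KD, red) left of control libraries (ctrl, blue), and all 3 knockdown bars end lower than any control bar. The right plot gives the summed FPKM of large over small subunit genes in each library on an axis that starts at 1: the groups separate with all members (1.09 to 1.12 in knockdown, 1.02 to 1.03 in control libraries) and only just miss each other once RPS2 and RPSA are left out.

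Small subunit genes fell further than large subunit genes, by their medians. The median log2 change was -0.73 for the large subunit and -0.85 for the small subunit, so that the large subunit stood 0.12 above. Falls to less than 50% of control, a log2 change under -1, were seen for 10 of 46 large subunit genes (21.7%) and 13 of 31 small subunit genes (41.9%), where 7.99% of all tested genes were called lower by that much. The spread among genes was wider than the gap, with an SD of the log2 change of 0.271 in the large and 0.321 in the small subunit. No test was made of the gap, since genes are not replicates of a condition.

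The balance was also read within each library, as FPKM (a count divided by exon length and library total) summed over the large subunit genes and divided by the sum over the small. The ratio was 1.10, 1.09 and 1.12 in knockdown libraries and 1.02, 1.03 and 1.03 in control libraries. The groups did not overlap (1.10 ± 0.0110 after knockdown and 1.02 ± 0.00516 in control cells, SD, n = 3 each). RPS2 alone carried much of this. Without it the ratio was 1.20 ± 0.0136 after knockdown and 1.17 ± 0.00479 in control cells. With RPSA left out too, it was 1.22 ± 0.0140 after knockdown and 1.20 ± 0.00503 in control cells, and the lowest knockdown library, at 1.2108, lay barely above the highest control library, at 1.2104. Both genes were chosen after their values were seen, as those of the small subunit with the largest falls. Leaving out the stalk genes RPLP0, RPLP1, RPLP2 and RPL12 instead, the ratio was 0.969 ± 0.00980 after knockdown and 0.862 ± 0.00692 in control cells.

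**Figure D2:**
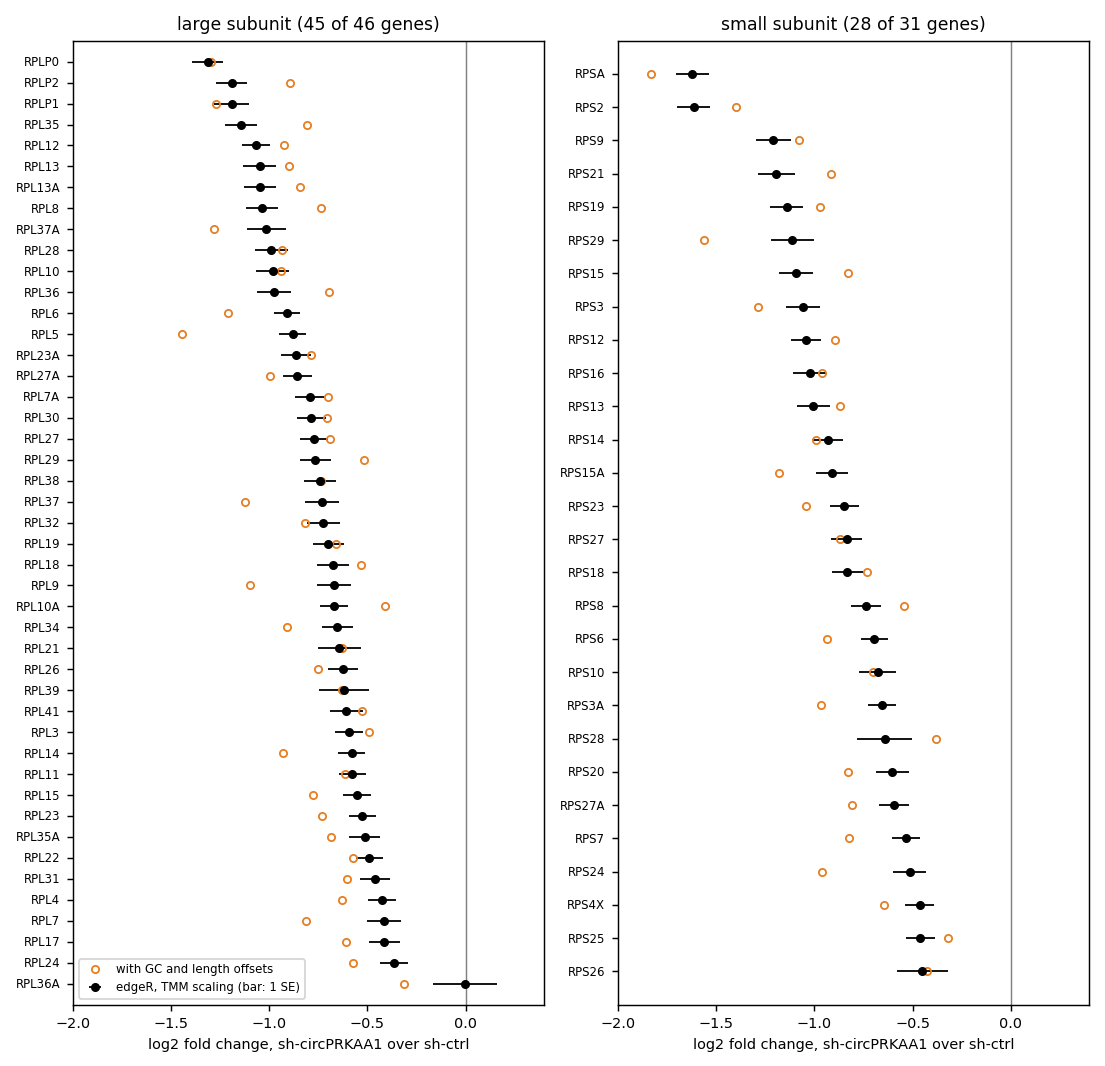
Each row is 1 gene, for 73 of the 77 members, with the large subunit on the left and the small subunit on the right, sorted by log2 fold change, sh-circPRKAA1 over sh-ctrl. Black points are edgeR estimates with bars of 1 standard error and orange circles are estimates with offsets for GC content and length, and among the genes drawn only the bar of RPL36A reaches 0.

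RPSA and RPS2 had the largest falls of all 77 genes. RPSA (ENSG00000168028, chr3:39406716-39412542, GRCh38), a small subunit protein also known as the laminin receptor, had 456, 490.0 and 425 CPM in knockdown libraries and 1559.6, 1292 and 1366 CPM in control libraries. Its log2 change was -1.62 (SE 0.0837, edgeR adjusted p = 2.20e-10), which left 32.5% of the control level. RPS2 (ENSG00000140988, chr16:1962058-1964841), a protein of the channel through which mRNA enters, had 1520.2, 1617 and 1432 CPM after knockdown and 5127, 4243 and 4626 CPM in control cells. It is the most abundant member in control cells, and its log2 change was -1.61 (SE 0.0838, edgeR adjusted p = 2.27e-10). In both genes every knockdown library was lower than every control library. The same held for 76 of the 77 genes and for 34.1% of all tested genes.

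The 4 proteins of the stalk, which recruits elongation factors to the large subunit, had a median log2 change of -1.19. RPLP0 (ENSG00000089157, chr12:120196699-120201235, minus strand), which anchors the stalk to the ribosome, had 1496, 1649 and 1444 CPM after knockdown and 4081, 3552 and 3778 CPM in control cells, which gave a log2 change of -1.31 with SE 0.0794 (edgeR adjusted p = 1.07e-09). RPLP1, one of the acidic proteins that pair on RPLP0, had 688, 723 and 610.1 CPM after knockdown and 1722, 1388 and 1506 CPM in control cells. Its partner RPLP2 had 404, 411 and 367 CPM after knockdown and 983, 825 and 892 CPM in control cells. Both had a log2 change of -1.19, although RPLP1 had the higher count. RPL12, at the base of the stalk, had 596, 589 and 536 CPM after knockdown and 1266, 1158 and 1183 CPM in control cells, a log2 change of -1.07. All 4 fell to under 50% of control. So did 23 of the 77 members, and 7.99% of all tested genes were called lower by that much. Offsets for GC content and length brought RPLP2 and RPL12 to -0.90 and -0.93 and the median of the stalk to -1.10.

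Around the path of the mRNA the genes differed. RPS3, which helps to open the entry channel and also acts in DNA repair, had 1014, 1095 and 906 CPM in knockdown libraries and 2298, 1900.4 and 2069.9 CPM in control libraries, a log2 change of -1.06. RPS23, a protein of the decoding centre, had a log2 change of -0.85. On the side where the mRNA leaves, RPS14, lost in the 5q- syndrome, had a log2 change of -0.93. RPS26 and RPS28, which touch the mRNA there, had -0.45 and -0.64, but from few counts, with RPS26 at 8.63, 8.39 and 6.96 CPM after knockdown and 11.4, 10.5 and 10.9 CPM in control cells. The median was -1.06 for the 3 genes of entry and decoding and -0.64 for the 3 of the exit side. The order of these medians depended on the scaling, with -1.29 and -0.42 under offsets for GC content and length, but -0.47 and -0.65 under quantile normalization.

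The 9 genes of the tunnel where the nascent chain leaves, and of its rim, were all called lower, beside 32.4% of all tested genes. Their median log2 change was -0.62. The largest fall among them was in RPL35, a rim protein, with 379, 406 and 348 CPM after knockdown and 912, 769 and 819 CPM in control cells, a log2 change of -1.14. RPL4, whose loop lines the tunnel, had 1808, 1915 and 1727 CPM after knockdown and 2518, 2399 and 2405 CPM in control cells, which gave a log2 change of -0.43 with SE 0.0704 (edgeR adjusted p = 5.60e-05), and quantile normalization turned it to 0.23. RPL17, which also lines the tunnel, had -0.41. RPL31 and RPL22, at or near the rim, had -0.46 and -0.49, RPL26 and RPL39 both had -0.62, RPL19 had -0.70 and RPL23A -0.86.

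RPL5 and RPL11 travel with the 5S rRNA into the large subunit and, when free, bind and inhibit MDM2, a ubiquitin ligase. RPL5 had 639.9, 634 and 587 CPM in knockdown libraries and 1176, 1146 and 1103 CPM in control libraries, a log2 change of -0.88. RPL11 had 725, 747 and 664 CPM after knockdown and 1075, 1065 and 1045 CPM in control cells, a log2 change of -0.58. Both were lower in every knockdown library than in any control library, as were 76 of the 77 members and 34.1% of all tested genes. With offsets for GC content and length, RPL5, whose longest transcript has the lowest GC content of the 77 at 37.4%, moved to -1.44. RPL11 stayed at -0.61.

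Genes whose loss of 1 copy causes Diamond-Blackfan anemia, a failure of red cell production, are a subset with known sensitivity to dose. All 12 on the list used here, which need not hold every such gene, were called lower. So were 76 of all 77 members and 32.4% of all tested genes. The median log2 change of the 12 was -0.60, beside -0.77 for the 77. Of the 12, 3 fell to under 50% of control. So did 23 of the 77, and 7.99% of all tested genes were called lower by that much. Among the 3 were RPS19, the gene most often affected, at -1.14 and RPS29 at -1.11. RPS24 had 1044, 1009 and 936 CPM after knockdown and 1306, 1598 and 1367 CPM in control cells, a log2 change of -0.52, which quantile normalization turned to 0.081. RPL35A had -0.51, RPL15 -0.55, RPS7 -0.53 and RPS10 -0.68.

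RPS6 and RPS27A, known for other functions, were in the same range as the genes above. RPS6, which S6 kinase phosphorylates downstream of mTOR, had 1232, 1222 and 1102 CPM after knockdown and 1947, 1925 and 1881 CPM in control cells, a log2 change of -0.69. RPS27A, made as a fusion to ubiquitin, had a log2 change of -0.59. RPS9 and RPS21 were among the larger falls of the small subunit, at -1.21 and -1.19.

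At the other end, RPL36A was the one member not called. It had 4.23, 4.22 and 4.52 CPM in knockdown libraries and 3.88, 4.32 and 4.76 CPM in control libraries, so that the groups overlapped, and its log2 change was -0.0022 (SE 0.164, edgeR adjusted p = 0.992). It is also the member with the fewest counts, 462 in all, and its locus on chromosome X overlaps the readthrough gene RPL36A-HNRNPH2 and, on the other strand, GLA. RPL24, a protein at a bridge between the subunits, had the smallest fall that was called, with 321, 318 and 287 CPM after knockdown and 400.3, 404 and 388 CPM in control cells, which gave a log2 change of -0.36 with SE 0.0696 (edgeR adjusted p = 0.000227). Next came RPL7 and RPL17 at -0.41 and, in the small subunit, RPS26 at -0.45 and RPS4X and RPS25 at -0.46. These small falls depended on the scaling. RPL24 was not called with TPM scaling, at -0.072, or with quantile normalization, at -0.052. RPS26 was not called with library totals, at -0.25, with limma on log2(FPKM + 1), at -0.21, or with TPM scaling, at -0.16. RPL7 was not called with limma on FPKM, with TPM scaling or with quantile normalization, where it had -0.21, -0.13 and -0.017. RPL17 lost its call with TPM scaling, and RPL3, RPL4, RPL11, RPL15, RPL22, RPL23, RPL31, RPS3A, RPS4X, RPS7, RPS24 and RPS25 were not called lower with quantile normalization.

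**Figure D3:**
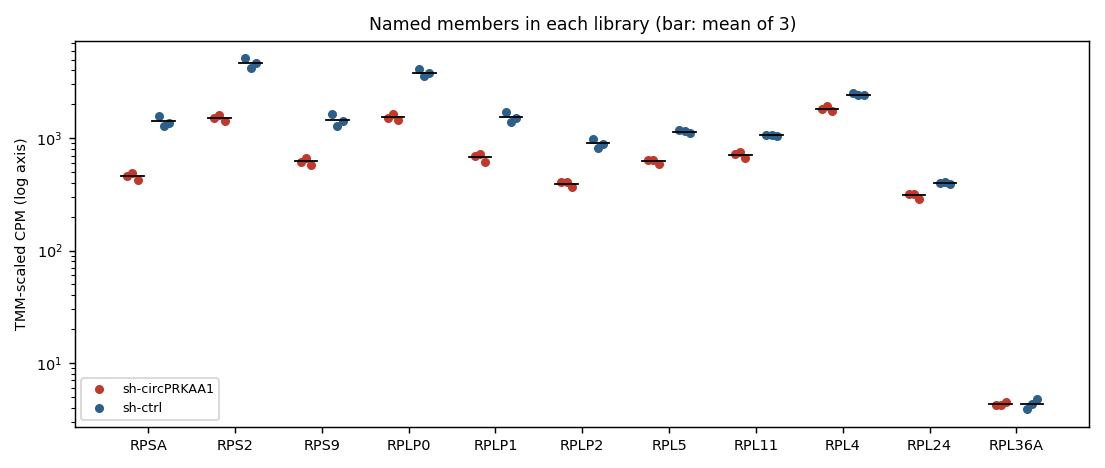
Level of named genes in each library, as TMM-scaled CPM on a log axis, with the 3 sh-circPRKAA1 libraries (red) left of the 3 sh-ctrl libraries (blue) and a bar at each mean. Of the genes drawn, the groups overlap for RPL36A alone, at 3.88 to 4.76 CPM.

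Levels of different genes were compared as FPKM, which divides by exon length. That length counts every exon of every annotated transcript, so genes with long rare exons read low. In control cells RPS2 and RPS12 were the highest of the small subunit, at 1822 ± 145 and 1487 ± 65.0 FPKM, and RPS18 was at 813 ± 44.9 FPKM (SD, n = 3). After knockdown RPS2 had 683 ± 32.3 FPKM and stood below RPS12 at 829 ± 63.9. The highest of the large subunit in control cells were RPL13A at 1296 ± 89.0, RPL19 at 1018 ± 57.2, RPLP0 at 889.5 ± 48.3 and RPL8 at 717 ± 65.3 FPKM. In knockdown cells RPL13A and RPL19 were level, at 721 ± 43.9 and 720.1 ± 43.4 FPKM, and RPL10A at 510.5 ± 25.7 stood above RPLP0 at 411 ± 22.3 FPKM. The lowest were RPL36A, RPL9 and RPL21, at 1.17, 6.88 and 9.03 FPKM after knockdown and 1.02, 9.54 and 12.3 FPKM in control cells, and RPS28, RPS26 and RPS10, at 3.57, 4.17 and 15.8 FPKM after knockdown and 4.87, 4.98 and 22.0 FPKM in control cells. The median gene of the large subunit had 147 ± 7.91 FPKM after knockdown and 222 ± 2.39 in control cells, and that of the small subunit 206 ± 13.9 FPKM after knockdown and 335 ± 27.7 in control cells.

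Several of the lowest values touch on how reads were shared with copies. The human genome holds many processed pseudogenes of these genes, and 1225 rows of the table are named for a member in this way. They held 6.21 ± 0.0341 counts for every 100 counts of the members after knockdown and 6.23 ± 0.0473 in control cells (SD, n = 3 each). For 4 members the pseudogene rows held more counts than the gene itself. These were RPL39 with 35172 pseudogene counts and 3212 of its own, RPS28 with 29351 and 959, RPL41 with 42373 and 31825, and RPL21 with 3797 and 2586. For 16 members the pseudogene rows reached 10% of the gene's own counts, and the levels of those members are uncertain. Of the 78 pseudogene rows that passed the filter, 55 were called lower and 6 higher, beside 32.4% and 36.1% of all tested genes. Their median log2 change was -0.68. Among the 15 rows with the most counts, 14 had a log2 change within 0.25 of the parent gene, and the median distance was 0.079. RPL3P4 stood furthest off, at -0.22 beside -0.59 for RPL3. With pseudogene counts added to their parents, 76 members were called lower, beside 4822 of the 14990 tested genes. RPL36A was then at 0.039.

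**Figure D4:**
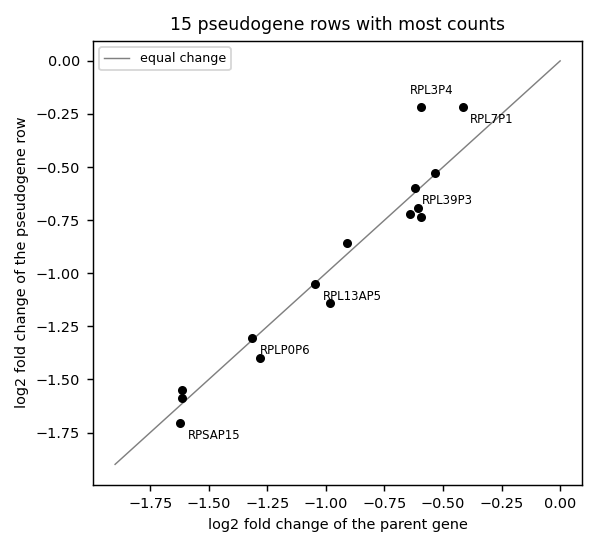
Log2 fold change, sh-circPRKAA1 over sh-ctrl, of the 15 pseudogene rows with the most counts (y axis) against that of the parent gene (x axis), with a line at equal change. The rows lie near the line from RPSAP15 at -1.71 to RPL7P1 at -0.22, and RPL3P4 is furthest above it.

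Neighbouring genes can share reads as well, and whether counting used strand is not known here. For 32 members a gene on the other strand overlaps, and for 6 of them that gene held at least 10% of the member's counts. RPL36A (with GLA), RPS28 (with NDUFA7 and KANK3), RPL36 (with LONP1), RPL6 (with PTPN11), RPL28 (with UBE2S) and RPL31 (with TBC1D8) are the ones concerned. RPL17, RPS10 and RPL36A also overlap a readthrough gene on their own strand, which held 21, 421 and 2 counts. Restricting to the 69 members with at least 10000 counts, a limit set after the data were seen, gave medians of -0.83 over all, -0.76 for the large and -0.92 for the small subunit.

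The falls were larger in genes rich in G and C. Across the whole table, too, the log2 change went down as GC content went up. Over the 77 genes, the log2 change had a Spearman correlation of -0.496 with the GC content of the longest transcript and of -0.467 with the control FPKM, given as a description across genes that share the same 6 libraries. Among other tested genes the median log2 change went down from 0.57 at a GC content of 30 to 40% to -0.33 above 60%. The ribosomal protein genes lay below them in every range, with medians of -0.64 for the 22 genes at 40 to 45% and -0.99 for the 15 genes at 55 to 60%. With offsets fitted per library on GC content and length, the correlation was 0.21 with GC content and -0.124 with the control FPKM, while that with exonic length was -0.434, beside 0.065 without offsets. These offsets, fitted without the members, brought the other genes to medians between -0.058 and -0.13 in each range. With them 76 of the 77 genes were again called lower, where 40.8% of all tested genes were, and the median was -0.83 (large -0.74, small -0.92) beside -0.096 over all tested genes.

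These offsets changed in part which genes led the list. They rest on the GC content of the longest transcript and the length of all annotated exons, 9840 bases for RPS29. Neither need be that of the RNA counted, so the order under offsets is uncertain. RPSA moved to -1.83, RPS29 to -1.56, RPL5 to -1.44 and RPS2 to -1.40, while RPL35 moved to -0.81 and RPL8 to -0.74. RPL36A moved to -0.32 and was still not called (edgeR adjusted p = 0.0906). Across the 77 genes the 2 estimates had a Spearman correlation of 0.677, and 39 genes were more negative with the offsets. With them 17 genes fell to under 50% of control, 8 of the large and 9 of the small subunit, where 7.52% of all tested genes did.

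**Figure D5:**
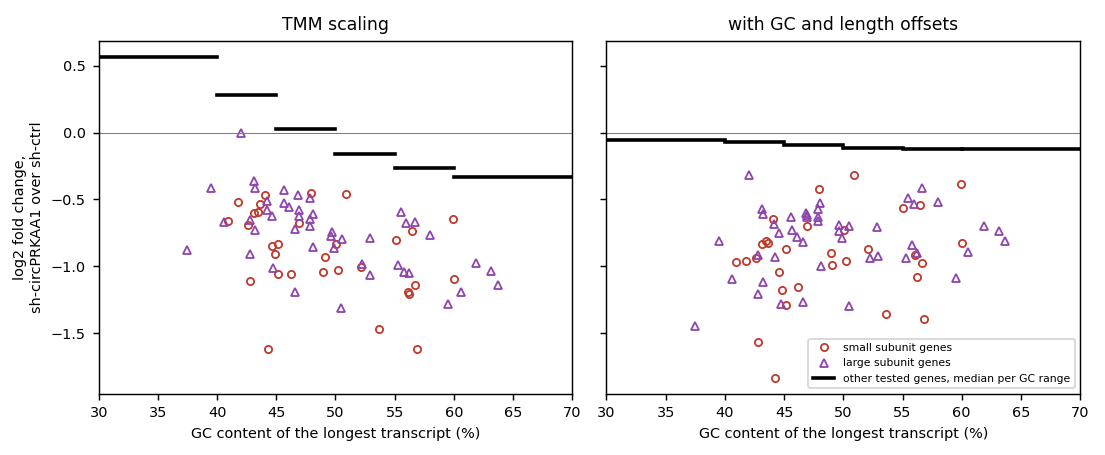
Log2 fold change, sh-circPRKAA1 over sh-ctrl, of each large (triangle) and small (circle) subunit gene against the GC content of its longest transcript, with black bars at the median of other tested genes in each GC range. On the left, with TMM scaling, the bars go down from 0.57 to -0.33, and on the right, with GC and length offsets, they lie between -0.058 and -0.13 while the members stay below them.

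Abundance was compared as well, although it varied widely among the members, from 462 counts for RPL36A to 324049 for RPS2. The 8 members under 10000 counts each had a mean under 200 CPM, the limit used for the comparison genes. Among 735 other genes with a mean of at least 200 CPM, 456 were called lower, or 62%, with a median log2 change of -0.35, and -0.43 with offsets. The median ribosomal protein gene lay below this in both. A grouping made after the values were seen separated members with a bacterial counterpart from those without. In the small subunit the 15 genes with one had a median of -1.02 and the 16 without one -0.67. In the large subunit the medians were -0.76 for 18 genes and -0.73 for 28. With offsets the small subunit groups were at -1.04 and -0.85, and the large subunit groups at -0.80 and -0.70. Members with a TOP start had a median log2 change of -0.83 (46 genes) and those without one -0.66 (16 genes), or -0.88 and -0.68 with offsets.

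Ribosomal proteins whose genes carry other symbols moved the same way. FAU, which encodes the small subunit protein eS30 as a fusion, had 190.5, 189 and 163 CPM after knockdown and 406, 312 and 333 CPM in control cells, a log2 change of -0.95. RACK1, a signalling scaffold on the small subunit, had -0.66. Both were called lower, beside 32.4% of all tested genes. Of 8 paralogs of ribosomal proteins, 6 were tested and all 6 were called lower, beside 32.4% of all tested genes, with a median of -0.58. With TPM scaling 4 of them were called lower, without RPL36AL and RPL7L1, beside 19.7% of all tested genes. RPL3L, the muscle form of RPL3, had 0.326, 0.379 and 0.452 CPM after knockdown and 2.21, 1.72 and 2.13 CPM in control cells. RPL36AL, the paralog of RPL36A, had -0.31 (edgeR adjusted p = 0.0067), and RPL7L1, RPL22L1, RPL26L1 and RPS27L had -0.41, -0.67, -0.56 and -0.61. RPL10L and RPL39L were at or near 0 and were not tested.

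Other mRNAs known to carry a TOP start were mostly lower too. Of 16 listed, 14 were tested, 11 were called lower and 0 higher, beside 32.4% and 36.1% of all tested genes. Their median log2 change was -0.45, beside -0.77 for the ribosomal protein genes. Among the 735 abundant genes given above, which include some of these, 62% were called lower, with a median of -0.35. With offsets for GC content and length all 14 were called lower, beside 40.8% of all tested genes. The medians were then nearer, -0.69 beside -0.83, with -0.43 for the abundant genes. EEF2, which moves the ribosome along the mRNA, had 2471, 2831 and 2665 CPM in knockdown libraries and 5377, 4627 and 4961 CPM in control libraries, a log2 change of -0.91. EEF1D and EEF1B2, which recharge elongation factor 1A, had -1.24 and -0.96, while EEF1A1, the factor itself, had -0.43. PABPC1, the poly(A) binding protein, had -0.89. EIF3E, EIF3H and EIF4B, initiation factors, were not called, at 0.12, -0.15 and -0.085. Their direction depended on the scaling. With offsets all 3 were called lower, at -0.46, -0.65 and -0.26, while EIF3E and EIF4B were called higher with TPM scaling, at 0.41 and 0.21, and with quantile normalization, both at 0.41. In all, 7 of the 14 were called lower and 2 higher with TPM scaling, and 7 and 3 with quantile normalization. Of all tested genes, 19.7% and 49.6% were with TPM scaling, and 34.5% and 32.6% with quantile normalization. EEF1G was counted at 0.434, 0.487 and 0.679 CPM after knockdown and 0.401, 0.521 and 0.392 CPM in control cells, and VIM was under 1 CPM, so neither was tested. The level of EEF1G is uncertain, since reads it may share with overlapping genes or near-identical copies were not checked.

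Genes listed as chaperones of ribosomal proteins were mostly lower, with a median of -0.49. Of these 8, 7 were called lower and 0 higher, beside 32.4% and 36.1% of all tested genes. GRWD1, the chaperone of RPL3, had 37.4, 43.2 and 43.9 CPM after knockdown and 125, 101 and 100.5 CPM in control cells, a log2 change of -1.39. PDCD2L and PDCD2, linked to RPS2, had -0.87 and -0.59, AAMP had -0.58, BCCIP -0.40, TSR2, which carries RPS26, -0.33 and HEATR3 -0.24. LTV1 was not called at 0.067. With library totals and with TPM scaling 4 of the 8 were called lower, with medians of -0.29 and -0.20, and BCCIP, TSR2 and HEATR3 were not. Of all tested genes 23.7% and 19.7% were called lower in these settings. LTV1 was called higher with TPM scaling, at 0.36, and lower with offsets, at -0.17.

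Genes that regulate TOP mRNAs or ribosomal protein transcription went both ways. Of 15, 10 were called lower and 3 higher, beside 32.4% and 36.1% of all tested genes. LARP1, which binds the TOP motif, had 180.0, 193 and 204 CPM in knockdown libraries and 407, 386 and 405 CPM in control libraries, which gave a log2 change of -1.05 with SE 0.0713 (edgeR adjusted p = 3.61e-09). MYC, which drives ribosome production, had 93.2, 96.8 and 102 CPM after knockdown and 218, 211 and 203 CPM in control cells, a log2 change of -1.12. EIF4EBP1, a translational repressor that mTOR inactivates, had -1.47, MLST8, an mTOR subunit, -1.24, and RPS6KB2, an S6 kinase, -0.99. The other S6 kinase, RPS6KB1, had 59.1, 52.5 and 56.2 CPM after knockdown and 19.2, 28.0 and 25.4 CPM in control cells, a log2 change of 1.20. TSC1 and MTOR were also called higher, at 0.77 and 0.26. The remaining 5 that were called lower, RPTOR, TSC2, EIF4EBP2, CNBP and MAX, lay between -0.59 and -0.21, and LARP1B and LARP4 were not called, at 0.039 and 0.25. With TPM scaling 6 were called lower and 5 higher, LARP1B and LARP4 among the higher, beside 19.7% and 49.6% of all tested genes. With offsets for GC content and length 12 were called lower, beside 40.8% of all tested genes. LARP1B and LARP4 were among the 12, at -0.73 and -0.50. RPS6KB1 and TSC1 were then at 0.58 and 0.46, still called higher, and MTOR was not called, at 0.12.

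Of 7 genes that handle the 5S particle or respond to its free proteins, 4 were called lower and 2 higher, beside 32.4% and 36.1% of all tested genes. With library totals and with TPM scaling 2 were called lower and 3 higher. Of all tested genes 23.7% and 45.5% were with library totals, and 19.7% and 49.6% with TPM scaling. Once offsets were used, 5 were called lower, beside 40.8% of all tested genes. RRS1, which loads the particle onto the large subunit, had 19.5, 24.1 and 21.5 CPM after knockdown and 60.9, 62.8 and 60.6 CPM in control cells, a log2 change of -1.50. BRIX1 and RPF2, which work with it, had -0.45 and -0.40, and in both the groups overlapped. Neither was called with library totals or TPM scaling. MDM2 was not called at 0.14, and its direction depended on the scaling: it was called higher with library totals, TPM scaling and quantile normalization, at 0.34, 0.43 and 0.37, and lower with offsets, at -0.40. CDKN1A, an inhibitor of the cell cycle, and MDM4 were called higher, at 0.63 and 0.83.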

How the data were processed

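Per the labels' protocols, RNA of 6 HepG2 samples was made into libraries with the SMARTER mRNA-Seq kit. The authors deposited whole-number counts per gene with exonic lengths, and FPKM, per the file headers. The tools that aligned and counted reads, and any use of strand, were not given in the sources used here. Genome builds named in the submitters' processing notes are hg18, mm10 and GRCm38. Of the gene identifiers, 96.3% were in GENCODE release 29 and 99.98% of those overlapped its coordinates, so coordinates are GRCh38. Deposited FPKM equalled count over length and library total within 0.0051 in 5 numbered columns. A per-sample column with no replicate number (1) was not used, and FPKM was computed from counts in all libraries.

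Groups follow the titles, although the shRNA tags of the knockdown samples name circPRKAA1, circPRKAA2 and circPRKAA3. Libraries within a group differed by more than counting noise, with a chi-square of 3.82 to 16.1 per degree of freedom.

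The filter was filterByExpr (minimum count 10, minimum total 15). Genes were tested with edgeR 4.0.16 (R 4.3.3) over all 14990, with TMM scaling, Benjamini-Hochberg adjustment and a threshold of 0.05. Alternatives were DESeq2 1.42.0, limma 3.58.1 on log2(FPKM + 1) and log2(FPKM + 0.1), other scalings, no filter, pseudogene counts added, offsets for GC content and length (mgcv 1.9.3), mitochondrial genes left out, a replicate block, and leaving out 1 library at a time. TPM scaling and the limit of 10000 counts were added after the data were seen. The code was tested on simulated data.

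The ribosomal protein genes and all lists were chosen with earlier results of these data known. Named members are, per subunit, the 4 largest and 4 smallest changes, the 4 highest and 3 lowest by FPKM, members not called lower, and those of the role lists (stalk, 5S particle, exit tunnel, mRNA entry, mRNA exit, ubiquitin fusion, S6 kinase target, Diamond-Blackfan anemia). Others are named where a sentence says why. Some genes that these rules name are not reported here. Sequences are from RefSeq (GRCh38.p14), and those of genes on chromosome 8 are not printed.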

Additional observations from a re-analysis of the deposited data

How the results depend on the processing

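The count of genes called lower was 76 with DESeq2, its size factors, no filter, TMM without the members, pseudogene counts added, offsets, mitochondrial genes left out, and each library left out. It was 75 with library totals, 75 with limma on log2(FPKM + 0.1), 74 with limma on log2(FPKM + 1), 72 with TPM scaling and 62 with quantile normalization, where the count called higher was 1. Of all 14990 tested genes, 4878 were called lower with DESeq2, 5105 with its size factors and 4822 with pseudogene counts added. With limma on log2(FPKM + 1) 3604 were. The shares of all tested genes called lower were 40.8% with offsets, 23.7% with library totals, 19.7% with TPM scaling and 34.5% with quantile normalization. Those for the remaining settings are not given here. The median log2 change over all, large and small subunit genes was -0.57, -0.53 and -0.65 with library totals and with limma on log2(FPKM + 0.1), -0.57, -0.52 and -0.65 with limma on log2(FPKM + 1), -0.38, -0.38 and -0.54 with quantile normalization, and -0.48, -0.43 and -0.55 with TPM scaling. Library totals and TPM scaling also shift the median of all genes, as given with the results, and the cause of the other differences was not tested. Leaving out 1 library moved the median between -0.85 and -0.72 (large -0.83 to -0.66, small -0.92 to -0.79), the share of counts between 5.02% and 5.27% after knockdown and 7.995% and 8.35% in control cells, and the subunit ratio between 1.10 and 1.11 after knockdown and 1.02 and 1.03 in control cells. With pseudogene counts added the share was 5.43% and the ratio 1.17 after knockdown, against 8.72% and 1.08 in control cells. With mitochondrial genes left out the share was 5.73% after knockdown and 9.08% in control cells.

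Replicate numbers shared between the groups did not pair the libraries (correlations of deviations -0.092, -0.149 and 0.041). With the number as a replicate block 76 genes were called lower, with medians of -0.77, -0.73 and -0.85, or -0.82, -0.74 and -0.92 with offsets as well. Single genes turned sign under quantile normalization (RPL23 0.040, RPL3 0.024, RPL4 0.23, RPS24 0.081, RPS7 0.062). RPL36A, which was not called in any setting, turned to 0.0034 with the block, 0.20 with library totals, 0.19 and 0.11 with limma, 0.039 with pseudogene counts, 0.29 with TPM scaling, and 0.011, 0.013 and 0.042 without knockdown replicate 1, knockdown replicate 2 or control replicate 3. Without 1 library its range was -0.0905 to 0.0421. Of 1540 values of single genes under 20 alternatives, 31 changed direction or call. Counting error weighs most on the 8 members under 10000 counts.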
